A study of Mus musculus with 26 samples.

Results

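Mouse male germ cells and somatic cells carry different genes for the same steps of energy metabolism, and 10 such genes were followed through the testis and the epididymis of wild-type mice and of a knock-in line labelled ArKI. They were *Pgk1* and *Pgk2*, *Ldha*, *Ldhb* and *Ldhc*, *Gapdhs*, *Pdha1* and *Pdha2*, and *Cycs* and *Cyct*. The members were chosen by gene symbol, and all 10 had a row among the 23337 genes of the count data for both the epididymis and the testis. *Gapdh*, the somatic partner of *Gapdhs*, was added as a reference gene and is not a member. The 5 forms *Pgk2*, *Ldhc*, *Gapdhs*, *Pdha2* and *Cyct* are called germ-cell forms here, and the other 5 are called somatic forms.

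RNA-seq was done on 26 samples from 3-month-old males of a C57Bl/6N; 129 hybrid background. The ArKI males carried the knock-in allele, and their wild-type (WT) littermates carried the unaltered allele. There were 5 WT and 5 ArKI samples of the initial segment (IS), the most proximal part of the epididymis, 5 and 5 of the adjoining caput, and 3 and 3 of the testis. The allele was made in G4 (129S6B6F1) embryonic stem cells, the Neo cassette was removed with FLP recombinase, and the allele was present in every cell of the ArKI males. The samples were whole pieces of tissue. Each count is the number of uniquely mapped 50-base reads of a gene. The libraries held 5829074 to 9770625 counts in the IS, 4125768 to 11913469 in the caput and 14077013 to 21376604 in the testis. A count of 0 in a library allows up to 3 counts, which is 0.307 to 0.515 counts per 1000000 (CPM) for the IS libraries, 0.252 to 0.727 CPM for those of caput and 0.140 to 0.213 CPM for testis. Only counting error enters these limits. The epididymal samples were sequenced as batch 2 and the testis samples as batch 1, so in comparisons of testis with epididymis the organ and the run cannot be told apart. Replicates are separate samples by their labels, and p-values measure the spread between these samples. By the study's methods the IS and caput came from the same 5 WT and 5 ArKI mice, but the labels do not say which samples share a mouse, so comparisons between the segments treat samples that share mice as independent.

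Glycolysis in sperm runs largely on enzymes that somatic cells do not make. The genes for phosphoglycerate kinase and for the pyruvate dehydrogenase E1 alpha subunit lie on the X chromosome, which is silenced in meiotic spermatocytes, and intronless autosomal copies of both are active in the germ line. Glyceraldehyde-3-phosphate dehydrogenase and lactate dehydrogenase also have sperm forms that are held in the flagellum, and the germ line has its own cytochrome c.

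The annotation showed these origins in the gene structures (GRCm38.p6, the assembly of mm10). *Pgk1* (X:106187100-106203699) and *Pdha1* (X:160122219-160138430) had 11 exons each, whereas *Pgk2* (17:40207018-40208609) and *Pdha2* (3:141210004-141212355) had 1 exon. *Ldha* (7:46842274-46855627) and *Ldhc* (7:46861263-46878147) lay on the same strand of chromosome 7, 5635 bases apart, with 8 exons each, and *Ldhb* (6:142490249-142507957) lay on chromosome 6. *Gapdhs* was at 7:30729779-30744791 with 11 exons, *Cycs* at 6:50562563-50566569 with 3 exons and *Cyct* at 2:76353942-76360453 with 4 exons.

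A comparison of partners is only possible if a 50-base read can tell them apart, and the coding sequences showed that it could. The coding sequences were 79.3% identical for *Pgk1* and *Pgk2*, 73.9% for *Ldha* and *Ldhc*, 65.2% for *Ldhb* and *Ldhc*, 73.0% for *Ldha* and *Ldhb*, 71.5% for *Gapdh* and *Gapdhs*, 75.6% for *Pdha1* and *Pdha2* and 76.2% for *Cycs* and *Cyct*. The longest identical run in any pair was 22 bases, and no 50-base window was shared between members. The 60 bases at the middle of 4 alignments are printed 5′ to 3′ to show how the differences are spread, with the bases that differ between the partners in capitals. They come from GENCODE M21 transcripts, and positions are counted from the first base of the coding sequence. The *Pgk1* and *Pgk2* windows (bases 596 to 655 of both) differed at 14 positions, *Ldha* (512 to 571) and *Ldhc* (425 to 484) at 15, *Pdha1* (554 to 613) and *Pdha2* (557 to 616) at 15, and *Cycs* and *Cyct* (128 to 187 of both) at 14.
Pgk1: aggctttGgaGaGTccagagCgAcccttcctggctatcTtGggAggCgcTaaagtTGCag
Pgk2: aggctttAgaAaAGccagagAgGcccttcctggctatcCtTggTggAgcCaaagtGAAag
Ldha: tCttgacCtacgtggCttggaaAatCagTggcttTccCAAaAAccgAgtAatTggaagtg
Ldhc: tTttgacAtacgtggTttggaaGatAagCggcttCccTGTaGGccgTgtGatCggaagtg
Pdha1: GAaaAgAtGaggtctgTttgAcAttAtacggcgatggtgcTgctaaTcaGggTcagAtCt
Pdha2: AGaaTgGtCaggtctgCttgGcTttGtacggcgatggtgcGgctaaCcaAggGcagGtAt
Cycs: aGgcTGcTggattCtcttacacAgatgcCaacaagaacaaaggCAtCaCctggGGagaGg
Cyct: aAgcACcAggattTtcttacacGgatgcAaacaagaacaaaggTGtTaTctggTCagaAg

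Sequence shared with other genes, many of them pseudogenes, limited the somatic forms, while partners shared none. Of the 50-base windows of *Pgk1*, 68.0% were also found in transcripts of other genes, among them 5 pseudogenes. For *Gapdh* it was 78.3%, with 213 pseudogenes. The shares were 28.5% for *Cycs*, 27.0% for *Ldhb*, 16.9% for *Pdha1*, 15.9% for *Ldha* and 4.38% for *Gapdhs*, and no window of *Pgk2*, *Ldhc*, *Pdha2* or *Cyct* was shared. Only uniquely mapped reads were counted, so the levels of *Pgk1* and *Gapdh* are lower bounds on their transcripts, and that of *Cycs* may be too. The search did not tell copies elsewhere from genes that overlap a member, whose reads can map uniquely. Levels limited in this way can be compared between samples of 1 gene but less well between genes.

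In the WT testis the germ-cell form prevailed among the counted reads of every enzyme. Levels between genes are given as CPM per kb of exon, with the SD over 3 samples. *Ldhc*, the sperm subunit of lactate dehydrogenase, led at 2998 ± 196, followed by *Gapdhs*, the sperm glyceraldehyde-3-phosphate dehydrogenase of the flagellar fibrous sheath, at 1333 ± 103 and *Pgk2*, the germ-cell phosphoglycerate kinase, at 653 ± 49.98. The muscle-type subunit *Ldha* came next at 473 ± 15.02. The level of *Pdha2*, the germ-cell E1 alpha subunit of the complex that turns pyruvate into acetyl-CoA, was 95.6 ± 4.999, and that of *Cyct*, the testis cytochrome c of the electron transport chain, was 93.4 ± 10.3, so that these neighbours did not differ beyond their spread. The heart-type subunit *Ldhb* stood at 53.2 ± 4.70. *Pdha1* (3.25 ± 0.0988), *Cycs*, the somatic cytochrome c, (0.581 ± 0.168) and *Pgk1* (0.529 ± 0.293) were the lowest, and *Cycs* and *Pgk1* overlapped.

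The order was different in the WT epididymis, where *Pdha1*, *Ldhb* and *Ldha* were the most abundant members. In the WT IS they stood at 73.7 ± 1.72, 46.5 ± 5.82 and 29.6 ± 2.62 CPM per kb of exon (SD, n = 5). *Ldhc* (2.02 ± 1.81), *Gapdhs* (1.87 ± 1.198), *Pgk1* (1.86 ± 0.348), *Cycs* (1.70 ± 0.328) and *Pgk2* (0.888 ± 0.570) formed a low group whose ranges overlapped. In the WT caput *Ldhb* was first at 115 ± 9.44, ahead of *Pdha1* (63.1 ± 3.48) and *Ldha* (61.6 ± 1.89), which overlapped. The germ-cell forms *Gapdhs* (10.8 ± 2.97), *Ldhc* (6.18 ± 1.06) and *Pgk2* (5.62 ± 1.45) stood above *Pgk1* (2.41 ± 0.181) and *Cycs* (1.37 ± 0.299). The place of *Pgk1* depended on the length used, since per kb of windows found in no other gene it was 7.72 in the WT caput. *Cyct* (0.420 ± 0.275) and *Pdha2* (0.171 ± 0.0591) were lowest.

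**Figure D1:**
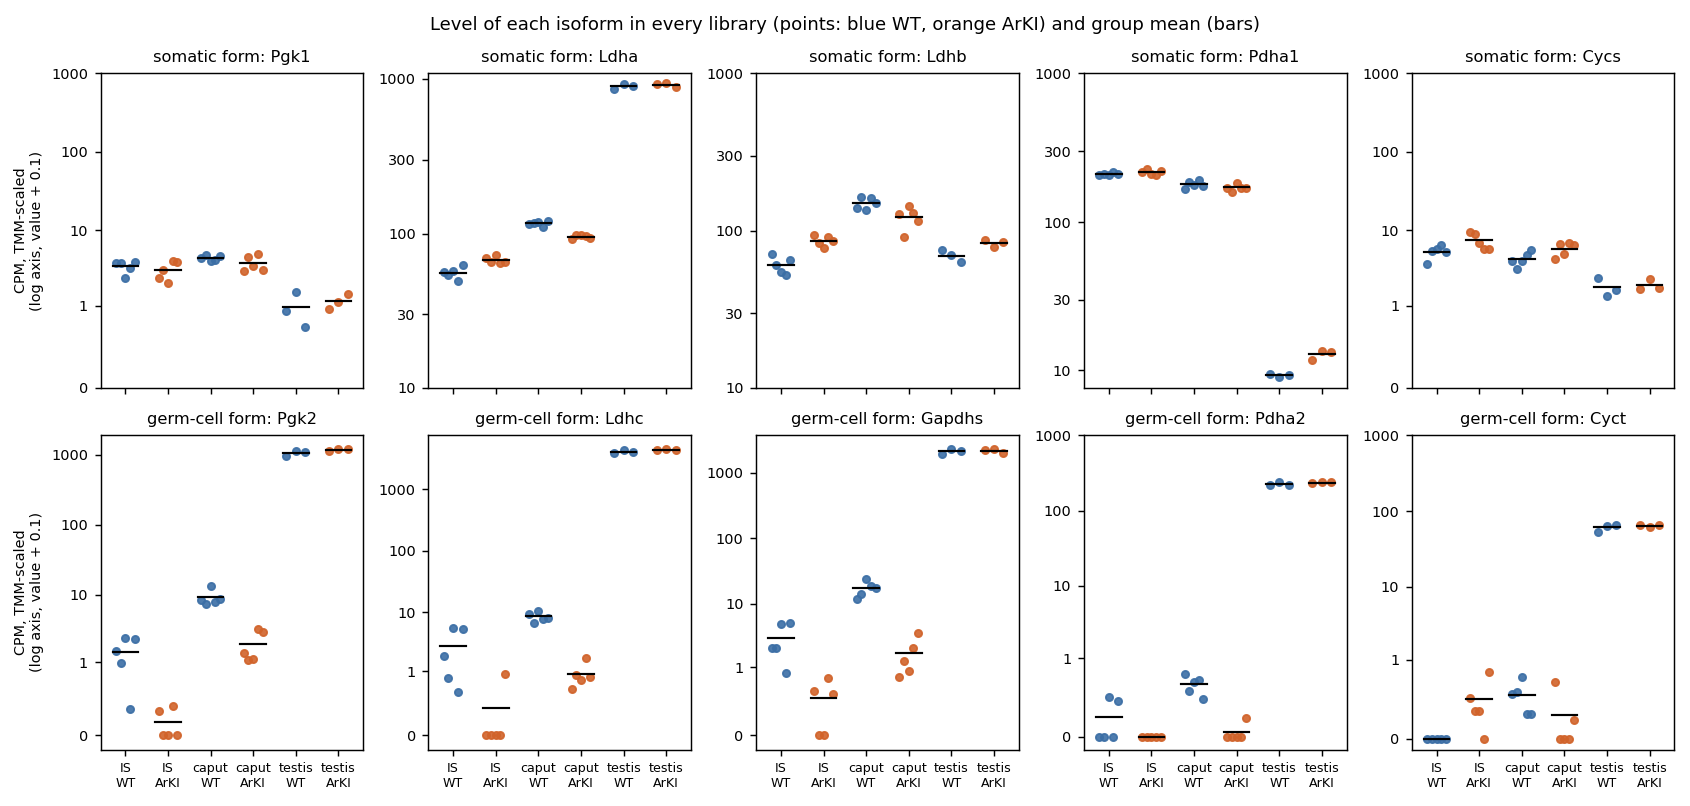
CPM (scaled by trimmed mean of M values) of the 10 genes in each of the 26 samples, on log axes of value + 0.1 that differ between panels, by tissue and genotype. Points are samples (blue WT, orange ArKI) and bars group means. In the testis the germ-cell forms reach from 53.5 CPM (Cyct) to 4466 CPM (Ldhc), and in the caput every ArKI sample lies under every WT sample for Pgk2, Ldhc and Gapdhs.

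The testis exceeded both epididymal segments for all 5 germ-cell forms and for *Ldha*. In edgeR's quasi-likelihood test on the WT samples with Benjamini-Hochberg adjustment, all 10 members passed FDR 0.01 between testis and IS, against 88.8% of all 16402 genes tested, and all 10 between testis and caput, against 89.2%. Most genes differed between these organs, and *Pdha2* and *Cyct* were in this fit only through the testis libraries, where they are high, so nothing is read from the count. Above the IS, the testis level was 9.56 (SE 0.240) on the log2 scale for *Pgk2*, 10.58 (SE 0.448) for *Ldhc* and 9.53 (SE 0.338) for *Gapdhs*. *Pdha2* had 4 counts over the 5 WT IS libraries, and its pooled count ratio was 2468-fold (95% exact interval 963 to 9058, counting error only). *Cyct* had none in the WT IS and was at least 178-fold higher in the testis, against 3 counts per library.

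Against the caput the testis level was 123-fold higher for *Pgk2*, 132-fold for *Gapdhs*, 223-fold for *Cyct*, 513-fold for *Ldhc* and 570-fold for *Pdha2*. *Ldha* behaved like the germ-cell forms in direction, with 17.1-fold more in testis than IS and 8.16-fold more than caput. *Pgk1*, *Pdha1* and *Cycs* were lower in the testis. *Pdha1*, the most abundant somatic form in the IS, had 206 to 218 CPM there and 167 to 193 CPM in caput, but 8.95 to 9.51 CPM in testis, a difference of -4.40 (SE 0.0698) and -4.19 (SE 0.0696) on the log2 scale. *Ldhb* was 2.04-fold lower in testis than caput. Its difference from the IS was 0.29 (SE 0.0891, adjusted p = 0.0054) with overlapping groups, and it turned to -0.12 with library size alone and to -0.20 with upper quartile factors. It also missed FDR 0.01 without testis WT replicate 1 (0.18, adjusted p = 0.099) and without most of the other WT samples, left out one at a time.

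The share of each enzyme's transcripts that came from the germ-cell form measured the same contrast within a sample. Per kb of exon, *Pgk2* made up 99.9% ± 0.0412 of *Pgk1* and *Pgk2* together in the WT testis (SD, n = 3), 69.3% ± 5.75 in the WT caput and 30.05% ± 18.2 in the WT IS (SD, n = 5). *Ldhc* made up 85.04% ± 0.516 of the 3 lactate dehydrogenase subunits in the testis and 3.40% ± 0.720 in the caput. By counted reads *Gapdhs* exceeded *Gapdh* in the caput as well, at 90.6% ± 2.15 of both. *Gapdh* had only 12 to 20 counts in each WT caput library, so the order of the transcripts themselves is not settled. The undercounting of *Pgk1* and *Gapdh* raised these shares, and per kb of unshared windows *Pgk2* was 42.4% and *Gapdhs* 70.2% in the WT caput, and *Pgk2* was 13.3% in the WT IS. *Pdha2* made up 96.7% ± 0.258 of both E1 alpha forms in the testis and 0.272% ± 0.101 in the caput.

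**Figure D2:**
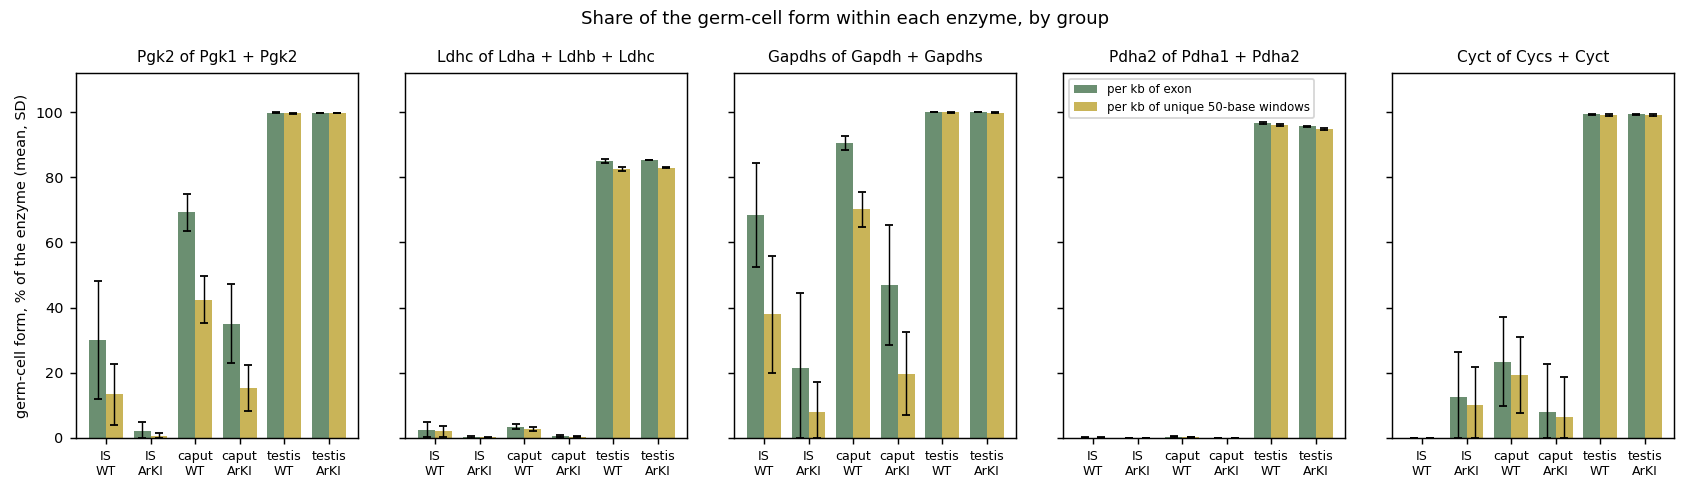
Share of each enzyme's transcripts from the germ-cell form (percent, vertical axis) by tissue and genotype; bars are group means with SD, per kb of exon (green) and per kb of 50-base windows found in no other gene (yellow). In the testis the bars per kb of exon reach at least 85.04%, while Ldhc and Pdha2 reach at most 3.40% in IS and caput.

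Within WT mice *Pgk2* and *Gapdhs* were higher in the caput than in the IS. *Pgk2* was 2.61 higher (SE 0.336, adjusted p = 3.2e-05) and *Gapdhs* 2.48 higher (SE 0.348, adjusted p = 8.0e-05) on the log2 scale. *Ldhc* differed by 1.58 (SE 0.454, adjusted p = 0.0105), which missed FDR 0.01. The WT IS libraries were uneven for *Ldhc*, with 16, 7, 47, 3 and 54 counts in replicates 1 to 5, and the difference passed at 1.94 without replicate 3 and 1.97 without replicate 5. *Pdha2* had 19 counts over the caput libraries and 4 over the IS (count ratio 4.47, 95% exact interval 1.49 to 18.1), and *Cyct* had 13 and none. Both passed, but they were in this fit only through the testis libraries, where they are high, and the fit of the epididymal samples alone did not keep them. The call of *Pdha2* (2.02, adjusted p = 0.0051) was lost in DESeq2 (adjusted p = 0.012) and, at 1.72 to 1.99, without IS replicate 1, 2 or 4 or caput replicate 1, 3 or 4. Among the somatic forms *Ldha* (1.06, SE 0.0542) and *Ldhb* (1.31, SE 0.0768) were higher in the caput and *Pdha1* was lower (-0.21, SE 0.0435). In all, 7 of 10 members passed with *Pdha2* and *Cyct* among them, against 55.0% of all genes tested. *Pgk1* and *Cycs* did not pass (adjusted p = 0.089 and 0.16). Markers of late spermatids and sperm moved in the same samples, with 14 of 14 higher in the WT caput than in the WT IS, 13 of them past the 2-fold limit, and a median log2 difference of 2.21. This fit could keep such markers through the testis and caput libraries, where they are higher than in the IS, so nothing is read from their count. Of other markers, 4 of 4 endothelial, 6 of 7 immune and 7 of 10 principal cell genes were lower in the caput. Of 4 clear cell genes 3 were higher. Of 6 smooth muscle genes 3 were higher in the caput and 1 was lower (median log2 difference 0.44). The summed smooth muscle level was nonetheless 3322 to 3552 CPM in the IS and 792 to 1098 CPM in the caput, so the sum does not stand for most of these genes. The part of all these markers in the differences of the members was not tested.

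The germ-cell transcripts of the WT caput were a small and uneven fraction of their testis levels. The WT caput level was 0.861% ± 0.222 of the WT testis mean for *Pgk2*, 0.807% ± 0.223 for *Gapdhs*, 0.450% ± 0.295 for *Cyct*, 0.206% ± 0.0355 for *Ldhc* and 0.179% ± 0.0619 for *Pdha2* (SD, n = 5). In whole tissue, fewer cells of a type and less RNA per cell cannot be told apart. *Ldhc* lost rank: it was the most abundant form in the testis, but the log2 ratio of *Pgk2* to *Ldhc* CPM, which was -1.95 on average in the WT testis, was between -0.15 and 0.34 in the 5 WT caput samples. For comparison, the WT caput level of *Ldha* was 13.01% of its testis level.

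The caput of ArKI mice had much lower levels of *Pgk2*, *Ldhc* and *Gapdhs*, and a smaller deficit of *Ldha*. *Gapdhs* was at 12.0, 14.0, 24.4, 18.5 and 17.6 CPM in the WT samples and at 0.687, 1.28, 0.851, 2.06 and 3.49 CPM in the ArKI samples. Every ArKI value was below every WT value, and 19.9% of all genes had groups that did not overlap. *Gapdhs* fell by 3.27 on the log2 scale (SE 0.359, 9.64-fold, adjusted p = 7.7e-05, edgeR's quasi-likelihood test).

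*Ldhc* had 98, 64, 94, 68 and 73 counts in the WT caput, or 9.45, 6.62, 10.4, 7.85 and 8.08 CPM. In the ArKI caput it had 4, 4, 8, 21 and 10 counts, or 0.458, 0.854, 0.681, 1.73 and 0.793 CPM. The groups were far apart, and the fall was 3.18 on the log2 scale (9.06-fold, SE 0.250, adjusted p = 6.6e-08). *Pgk2* was at 8.49, 7.34, 13.2, 7.85 and 8.75 CPM in WT and at 1.37, 1.07, 1.11, 3.21 and 2.85 CPM in ArKI. It fell by 2.16 (4.46-fold, SE 0.278, adjusted p = 5.2e-05), again without overlap.

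The other pair of germ-cell forms was too scarce for the fit. *Pdha2* had 6, 3, 4, 4 and 2 counts in the WT caput, and 1 count in the ArKI caput, in replicate 5. The groups did not overlap (exact permutation test on log2(CPM + 0.5), two-sided, p = 0.0079, the smallest this design allows). Benjamini-Hochberg adjustment over 9 such tests gave 0.036. The pooled count ratio of WT to ArKI was 20.3 (95% exact interval 3.22 to 842). *Cyct* had 3, 3, 5, 1 and 1 counts in WT and 4, 0, 0, 0 and 1 in ArKI, which overlapped (exact permutation p = 0.103). When genes were kept down to 1 count, *Pdha2* passed FDR 0.01 (adjusted p = 0.0013) and *Cyct* did not (adjusted p = 0.26), against 14.8% of all genes in that fit.

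Of the somatic forms, *Ldha* was at 116, 117, 119, 111 and 120.5 CPM in the WT caput and at 92.7, 97.4, 97.9, 96.7 and 94.2 CPM in the ArKI caput. The groups were tight and separate, and the fall of 0.30 (SE 0.0432, adjusted p = 6.0e-05) did not reach the 2-fold limit. In the same samples the summed endothelial markers were at 39.2 to 41.9 CPM in WT and 45.5 to 65.8 CPM in ArKI (2 of 4 rose), and the summed immune markers at 81.2 to 103 CPM and 105 to 154 CPM (1 of 6 tested rose), both without overlap, and their part was not tested. *Ldhb* was at 136 to 163 CPM in WT and 91.0 to 144 CPM in ArKI with overlap, a difference of -0.31 (SE 0.0965, adjusted p = 0.032) that missed FDR 0.01. It passed in DESeq2 (adjusted p = 0.0067) and without ArKI replicate 3 (-0.37, adjusted p = 0.0075). *Pgk1*, *Pdha1* and *Cycs* did not pass (adjusted p = 0.34, 0.24 and 0.094).

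In all, 4 of the 8 members tested in the caput passed FDR 0.01, every one lower in ArKI, against 18.0% of all genes tested in either direction and 9.36% in the lower direction. *Pgk2*, *Ldhc* and *Gapdhs* also passed the 2-fold limit, as 4.98% of all genes did, but each had passed the low-count filter through its WT samples, where it was high, so nothing is read from these counts. The share of *Pgk2* in its enzyme went from 69.3% to 35.0% ± 12.2, that of *Gapdhs* from 90.6% to 46.8% ± 18.4 and that of *Ldhc* from 3.40% to 0.458% ± 0.234 (per kb of exon, SD, n = 5). Per kb of windows found in no other gene the same shares went from 42.4% to 15.4% ± 7.04 for *Pgk2*, from 70.2% to 19.7% ± 12.8 for *Gapdhs* and from 2.63% to 0.352% ± 0.180 for *Ldhc*. The fitted falls of *Pgk2*, *Ldhc* and *Gapdhs* kept their call in every alternative fit that kept the genes, and the shares were not recomputed there.

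**Figure D3:**
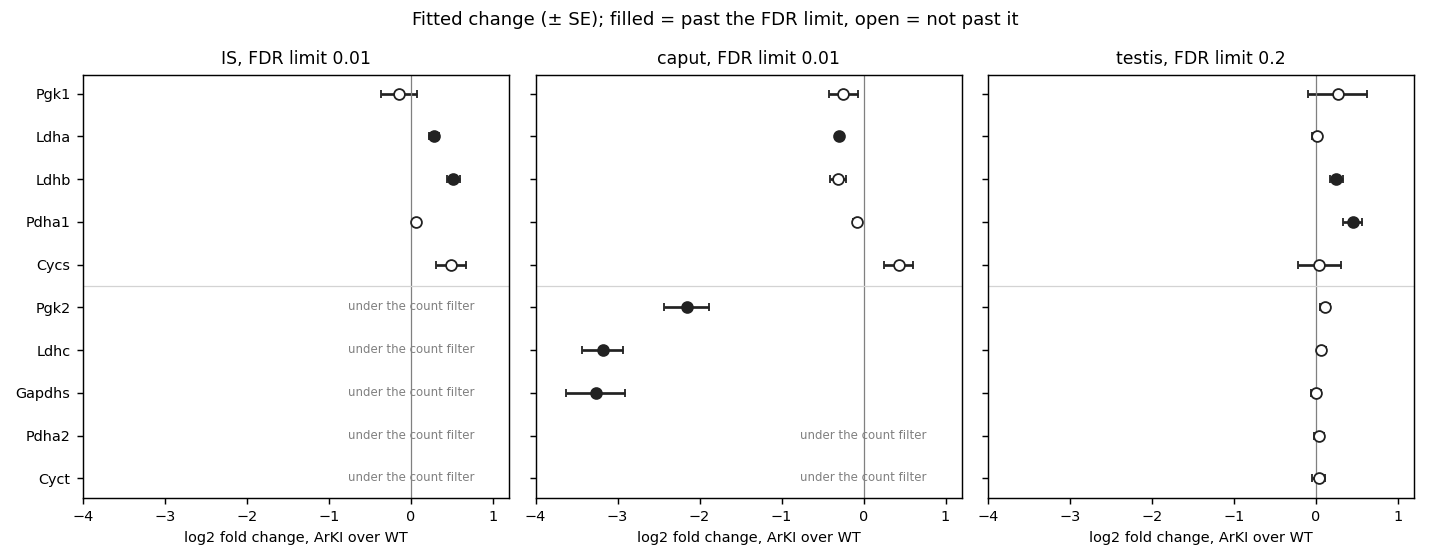
Log2 fold change (ArKI over WT) with its SE for each member tested in IS, caput and testis, from edgeR's quasi-likelihood fit; filled points passed the FDR limit of that tissue, 0.01 in IS and caput and 0.2 in testis. In the caput Gapdhs, Ldhc and Pgk2 lie between -3.27 and -2.16, while the somatic forms lie between -0.31 and 0.52 in all panels; forms under the count filter are named without a value.

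Transcripts of late spermatids and sperm moved in the same samples. Of a list of 15 such marker genes, 14 had a row, and all 14 fell in the ArKI caput, against 9.36% of all genes. Past the 2-fold limit were 13 of them, against 4.98% of all genes in either direction. The median log2 fold change was -2.86 against 0.002 over all genes. Markers low in the ArKI caput could pass the low-count filter through their WT samples, so nothing is read from these counts or this median. The summed level of 13 of the markers, without *Odf2*, which the IS also expressed at 56.7 to 71.9 CPM, was 247 to 380.1 CPM in the WT caput and 37.4 to 104 CPM in the ArKI caput. Beside it, *Pgk2* was 3.18% ± 0.248 of that sum in WT and 2.88% ± 0.434 in ArKI (SD, n = 5), and the groups overlapped. *Ldhc* was 3.00% ± 0.472 in WT and 1.44% ± 0.564 in ArKI, and *Gapdhs* 6.01% ± 0.890 and 2.53% ± 1.18. In the WT testis the same shares were 3.96% for *Pgk2*, 15.4% for *Ldhc* and 7.99% for *Gapdhs*. The part of the sperm transcripts in these falls was not tested. The markers of meiotic spermatocytes gave no call in the caput, with 3 tested.

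The falls of *Gapdhs* and *Pgk2* in the ArKI caput differed in size. The log2 ratio of *Gapdhs* to *Pgk2* CPM in the caput was 0.47, 0.88, 0.86, 1.18 and 0.97 in WT and -0.66, 0.18, -0.25, -0.54 and 0.25 in ArKI. Every ArKI value was lower, and the difference was -1.08 (exact permutation test, two-sided, p = 0.0079, the smallest possible, and 0.048 after Benjamini-Hochberg adjustment over 6 such tests). The ratio of *Pgk2* to *Ldhc* was 0.66 higher in ArKI (exact permutation p = 0.0159, adjusted 0.048), with overlap in ArKI replicate 2. The ratio of *Gapdhs* to *Ldhc* did not differ beyond the spread (-0.42, exact permutation p = 0.18), although it passed without ArKI replicate 5 (-0.69, exact permutation p = 0.032) and with pseudocount 2 (-0.55, exact permutation p = 0.040). These comparisons were added after seeing the data, over caput and testis.

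**Figure D4:**
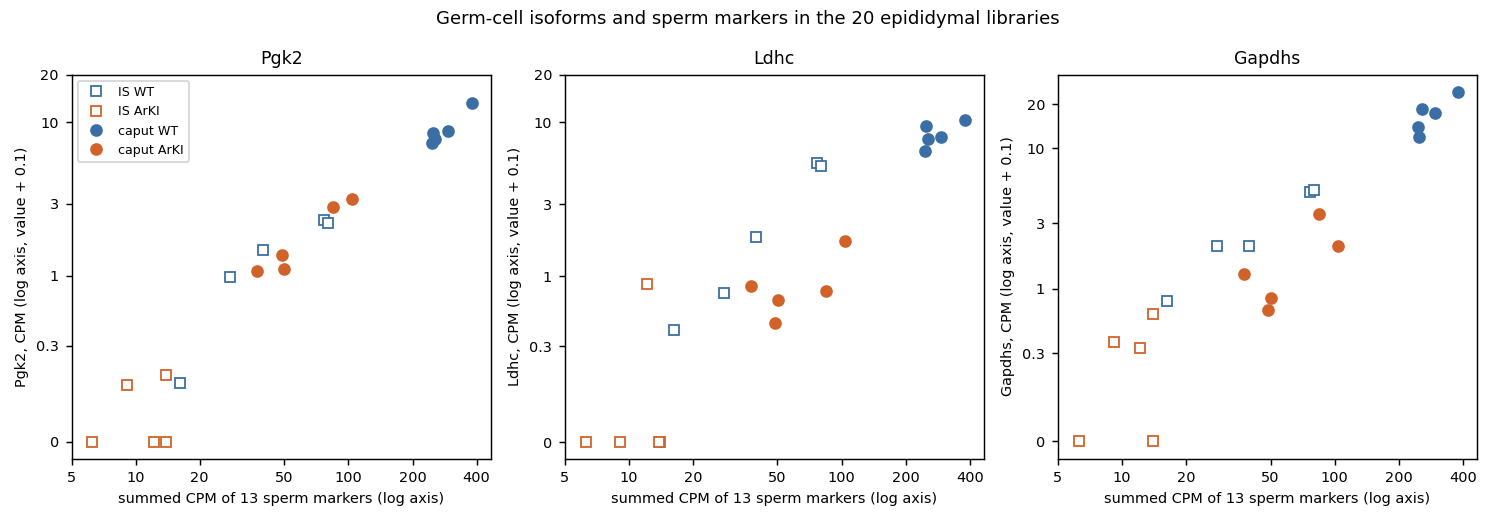
CPM of Pgk2, Ldhc and Gapdhs (vertical, log axis, value + 0.1) against the summed CPM of 13 late spermatid and sperm markers (horizontal, log axis) in the 20 epididymal samples. Filled circles are caput, open squares IS, blue WT and orange ArKI. WT caput samples (247 to 380.1 CPM of markers) lie apart from ArKI caput samples (37.4 to 104 CPM).

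In the IS the germ-cell forms had few counts, and *Pgk2*, *Ldhc* and *Gapdhs* had fewer counts in ArKI. *Pgk2* had 13, 9, 20, 1 and 23 counts in the WT IS and 1, 0, 0, 1 and 0 in the ArKI IS. *Ldhc* had 16, 7, 47, 3 and 54 counts against 0, 0, 0, 0 and 8. *Gapdhs* had 18, 19, 42, 6 and 52 counts against 3, 0, 0, 4 and 3. The WT samples spread widely, with replicate 4 lowest for all 3 forms and replicates 3 and 5 highest, and the sperm marker sum was 39.6, 27.9, 76.5, 16.2 and 80.1 CPM in the same samples and 6.27 to 14.0 CPM in ArKI. Of 5 such markers tested in the IS, *Prm2*, *Odf1* and *Gsg1* fell and *Spata18* rose, and their part was not tested. The *Gapdhs* groups did not overlap, while *Pgk2* overlapped at 1 count and *Ldhc* overlapped through ArKI replicate 5.

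The pooled counts were 66 in WT and 2 in ArKI for *Pgk2*, a library-scaled ratio of 28.6 (95% exact interval 7.60 to 241). For *Ldhc* they were 127 and 8 (13.7, 6.76 to 32.5) and for *Gapdhs* 137 and 10 (11.9, 6.26 to 25.3), for counting error only. None of the germ-cell forms passed the filter of the IS fit. The exact permutation test gave p = 0.0159 for *Pgk2*, 0.0238 for *Ldhc* and 0.0079 for *Gapdhs*, among 9 tests of this kind. After Benjamini-Hochberg adjustment over the 9 these were 0.048, 0.054 and 0.036. A fit over all 4 epididymal groups kept these genes only through the caput, where they are higher. Its log2 differences were -4.49 (SE 0.864), -3.68 (SE 0.883) and -3.48 (SE 0.754), all past FDR 0.01 as were 18.2% of all genes in that fit, and nothing is read from that count. With no filter beyond 1 count, *Pgk2* and *Gapdhs* passed FDR 0.01 in edgeR's test (adjusted p = 1.4e-04 and 0.0050) and *Ldhc* did not (adjusted p = 0.058), against 14.7% of all genes.

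*Pdha2* and *Cyct* were almost absent from the IS libraries. *Pdha2* had 0, 0, 2, 0 and 2 counts in WT and none in ArKI, which overlap (exact permutation p = 0.444). *Cyct* went the other way, with no count in the 5 WT libraries and 2, 1, 1, 0 and 6 counts in ArKI. Its exact permutation p was 0.0476, or 0.086 after Benjamini-Hochberg adjustment over the 9 tests of this kind. Its adjusted p in the fit without a filter was 0.013, and 10 counts in all lie behind it.

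The lactate dehydrogenase subunits of somatic tissue were the only members that passed FDR 0.01 in the IS fit, and they rose. *Ldhb* was at 70.7, 60.4, 54.4, 52.3 and 65.2 CPM in WT and at 94.0, 83.9, 77.5, 91.6 and 86.0 CPM in ArKI. The groups were separate (as for 20.2% of all genes), with a rise of 0.52 on the log2 scale (SE 0.0759, adjusted p = 7.9e-05). *Ldha* was at 56.7, 54.2, 57.5, 49.1 and 62.7 CPM in WT and at 70.1, 65.2, 73.3, 64.7 and 65.6 CPM in ArKI, also separate, with a rise of 0.28 (SE 0.0621, adjusted p = 0.0022). Neither reached the 2-fold limit, which 4.04% of all genes passed with FDR 0.01. *Cycs* was 0.49 higher (SE 0.182, adjusted p = 0.049), *Pgk1* -0.15 (adjusted p = 0.66) and *Pdha1* 0.05 (adjusted p = 0.34), and none of these passed. The count was 2 of 5 members tested, against 18.8% of all genes in either direction and 9.35% higher. Markers of other cells moved in the same samples: 5 of 6 smooth muscle markers, 3 of 4 endothelial markers and 3 of 5 basal cell markers fell in the ArKI IS. The summed level went from 3322 to 3552 CPM in WT to 2743 to 3272 CPM in ArKI for smooth muscle, from 90.8 to 109 CPM to 62.2 to 74.7 CPM for endothelium and from 442 to 483 CPM to 344 to 379 CPM for basal cells. Of 10 principal cell markers 4 fell and 2 rose, and of 7 immune markers 3 fell and 1 rose, with overlapping sums. Their part in the rise of *Ldha* and *Ldhb* was not tested.

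*Ldha* thus rose in the ArKI IS and fell in the ArKI caput, while *Ldhb* rose in the IS and did not pass in the caput, and the difference between the segments was tested. The interaction of segment and genotype (the caput difference minus the IS difference) was -0.57 for *Ldha* (SE 0.0738, adjusted p = 5.1e-06) and -0.82 for *Ldhb* (SE 0.136, adjusted p = 2.5e-04). Of the 8 members tested, these 2 passed FDR 0.01, against 8.18% of 14329 genes. Of the cell markers, 2 of 4 endothelial and 1 of 6 smooth muscle genes also passed, with positive interactions (list medians 0.65 and 1.05). So did 1 of 5 basal, 1 of 7 immune and 1 of 4 Sertoli cell genes with positive ones, 2 of 14 late sperm and 1 of 3 Leydig cell genes with negative ones, and 2 of 3 meiotic genes, 1 in each direction. Their part was not tested. In WT mice *Ldha* was 56.1 ± 4.97 CPM in IS and 117 ± 3.59 in caput, and in ArKI mice 67.8 ± 3.76 and 95.8 ± 2.23. For *Ldhb* the values were 60.6 ± 7.59 and 150.2 ± 12.3 in WT and 86.6 ± 6.54 and 122 ± 20.1 in ArKI (SD, n = 5). The step between the segments was thus smaller in ArKI for both subunits. The germ-cell forms showed no such difference that passed (*Pgk2* 2.33, SE 1.08, adjusted p = 0.16; *Ldhc* 0.50, SE 1.15, adjusted p = 0.84; *Gapdhs* 0.20, SE 0.836, adjusted p = 0.92), with wide errors.

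**Figure D5:**
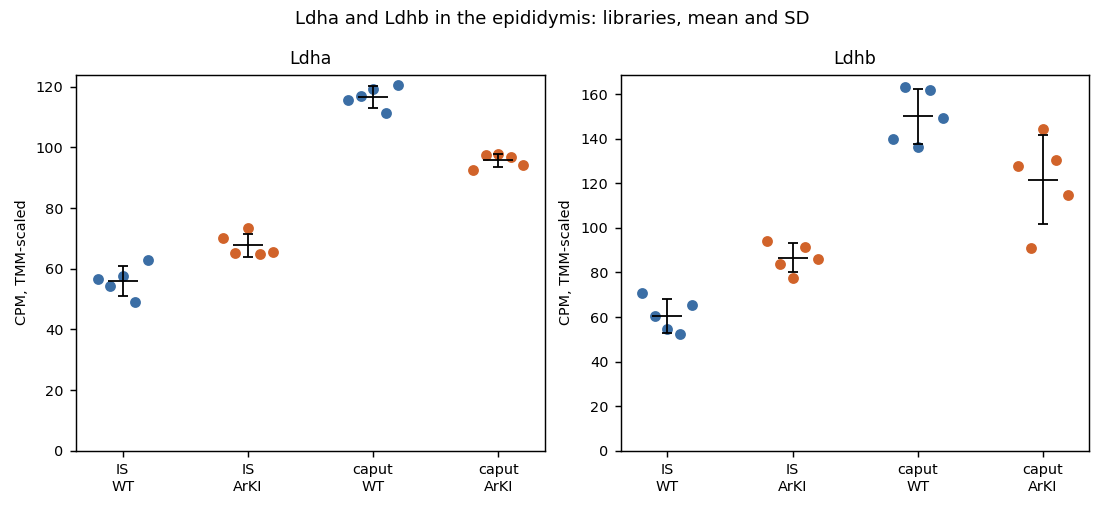
CPM of Ldha and Ldhb in the 20 epididymal samples by segment and genotype, on a linear axis from 0; points are samples (blue WT, orange ArKI), and black bars are means with SD. In IS the ArKI points lie above all WT points for both genes, and in caput the ArKI points lie under all WT points for Ldha and overlap them for Ldhb.

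In the testis the germ-cell forms were at nearly the same level in both genotypes. *Ldhc* was at 3859 to 4392 CPM in WT and 4299 to 4466 CPM in ArKI, and *Gapdhs* at 1959 to 2280 CPM and 2026 to 2270 CPM. *Pgk2* was slightly higher in each ArKI sample (968 to 1119.7 CPM in WT, 1120.2 to 1190.2 in ArKI), with a difference of 0.11 (SE 0.0615, adjusted p = 0.47) that did not pass. The differences of *Ldhc* (0.07, SE 0.0588), *Gapdhs* (0.00, SE 0.0645), *Pdha2* (0.04) and *Cyct* (0.03) were of the size of their errors or little above. The same holds for *Ldha* (0.01), *Cycs* (0.04) and *Pgk1* (0.26) among the somatic forms.

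Only *Pdha1* and *Ldhb* passed the FDR limit of 0.2 used for the testis, where 5.34% of all genes did. *Pdha1* was at 9.51, 8.95 and 9.29 CPM in WT and at 11.8, 13.4 and 13.4 CPM in ArKI. The groups did not overlap, as for 17.5% of all genes, and the rise was 0.45 (1.37-fold, SE 0.115, adjusted p = 0.044). *Ldhb* was at 75.2, 69.8 and 62.9 CPM in WT and at 87.8, 79.0 and 85.1 CPM in ArKI, a rise of 0.25 (SE 0.0770, adjusted p = 0.12) that did not pass without WT replicate 3 (0.19, adjusted p = 0.58) or ArKI replicate 1 (0.20, adjusted p = 0.33). Markers of Leydig cells, the testosterone-producing cells between the tubules, had a summed level of 654 to 816 CPM in WT and 1036 to 1096 CPM in ArKI, and 2 of 5 (*Cyp11a1* and *Cyp17a1*) rose. Their part in the rise of *Pdha1* and *Ldhb* was not tested. Neither gene reached the 2-fold limit, as 0.833% of all genes did. Late sperm markers gave no call among 14 in the testis.

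The log2 ratio of the germ-cell form to its somatic partner had an adjusted p under 0.05 in the caput in 5 of the 6 pairs, each lower in ArKI. With 5 against 5 samples these tests could not reach the limit of 0.01 used for the fits. It went from 0.95 to -0.90 for *Pgk2* over *Pgk1*, from -3.72 to -6.16 for *Ldhc* over *Ldha*, from -4.08 to -6.49 for *Ldhc* over *Ldhb*, from 3.05 to -0.02 for *Gapdhs* over *Gapdh* and from -7.65 to -8.38 for *Pdha2* over *Pdha1*, each as the mean of log2(CPM + 0.5) differences. *Pdha2* lay below the pseudocount, which sets the size of its difference. In these 5 the groups did not overlap, with p = 0.0079 in the exact permutation test and 0.028 after Benjamini-Hochberg adjustment over the 21 ratios tested. *Cyct* over *Cycs* did not pass (-0.77, exact permutation p = 0.071), nor did *Ldhb* over *Ldha* (-0.03, p = 0.82). The ratios of the germ-cell forms hold the same counts as the falls above, with *Ldhc* over both *Ldha* and *Ldhb*, so they are not separate evidence.

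In the IS 3 of the ratios had an adjusted p under 0.05, each lower in ArKI. *Ldhc* over *Ldhb* differed by -2.53 without overlap (exact permutation p = 0.0079, adjusted 0.028), *Ldhc* over *Ldha* by -2.29 and *Gapdhs* over *Gapdh* by -1.97 (both p = 0.016, adjusted 0.042). In the ArKI IS *Ldhc* and *Gapdhs* averaged 0.177 and 0.270 CPM, below the pseudocount, which limits the size of these differences. *Pgk2* over *Pgk1* (-1.49, adjusted p = 0.056) and *Ldhb* over *Ldha* (0.24, adjusted p = 0.10) did not pass by the exact permutation test after adjustment, nor did *Cyct* over *Cycs* (0.067, exact permutation p = 0.87). In the testis *Pdha2* over *Pdha1* was lower in each ArKI sample, 4.14 against 4.53 in WT on average, at p = 0.1, the smallest that an exact permutation test of 3 against 3 allows.

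All 16 of a list of further germ-cell forms of energy enzymes and carriers were higher in WT testis than in WT IS (median log2 difference 9.36), where 88.8% of all genes passed, and forms near 0 in the IS entered that fit only through the testis. In the ArKI caput 4 of the 8 tested fell (against 9.36% of all genes), all beyond 2-fold: *Pgam2* (-3.67, SE 0.431), a phosphoglycerate mutase, *Gk2* (-3.44, SE 0.389), a testis glycerol kinase, *Aldoart2* (-3.34, SE 0.378), a sperm aldolase, and *Ldhal6b* (-1.44, SE 0.324), a lactate dehydrogenase-like gene. *Pgam2*, *Gk2* and *Aldoart2* averaged 0.261, 0.145 and 0.216 CPM in the ArKI caput and had passed the low-count filter through their WT samples, so nothing is read from the count. The median of the 8 was -1.09. None of 4 tested passed in the IS (median 0.09) and none of 16 in the testis (median 0.02).

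Somatic enzymes of glycolysis around *Pgk1* and *Gapdh* passed the test in both directions. Of all genes tested, 18.8% passed in the IS, 18.0% in the caput and 5.34% in the testis, and the pathway counts are read against these shares. In the ArKI caput *Pfkp* rose by 0.89 and *Pfkl*, *Aldoa* and *Tpi1* fell by 0.46, 0.42 and 0.24 on the log2 scale among 13 tested (median -0.19, against 0.002 over all genes), and in the IS only *Hk1*, a hexokinase, fell by 0.49 among 12 (median -0.02). In the testis *Pgam1* rose by 0.63, *Aldoc* rose by 0.48 and *Hk2* fell by 0.24 among 11 (median 0.05). Around *Pdha1*, of 11 genes of the pyruvate dehydrogenase complex and its regulators, *Pdpr* (-0.48) and *Dlat* (-0.35), the E2 subunit, fell in the IS. In the caput *Pdp1*, a phosphatase that activates the complex, rose by 0.36 and *Pdk3*, a kinase that inhibits it, fell by 0.31. None passed in the testis. The medians of these 11 were -0.07 in the IS, -0.06 in the caput and 0.01 in the testis.

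Among 6 genes for lactate and pyruvate handling, *Slc16a1* and *Slc16a3*, both monocarboxylate transporters, fell by 0.71 and 0.47 in the ArKI caput and *Ldhd*, the D-lactate dehydrogenase, rose by 0.42. *Slc16a3* fell by 0.73 in the testis, and none passed in the IS. Their medians were -0.14 in the IS, -0.11 in the caput and -0.01 in the testis. Of the partners of cytochrome c, 1 of 18 passed in the IS (*Cox7b*, 0.27), 2 of 18 in the caput (*Cox6c*, 0.57, and *Apaf1*, 0.46) and 4 of 19 in the testis (*Cox7b* 0.55, *Cox6b1* 0.47, *Cox6a1* 0.34 and *Cox8a* 0.34), all higher in ArKI. The medians were 0.03, 0.07 and 0.14.

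Across the 20 epididymal samples the genes most like *Pgk2*, *Ldhc* and *Gapdhs* included transcripts of sperm proteins. By Pearson's r of log2(CPM + 0.5) over 14329 genes, *Pgk2* was closest to *Crisp2* (0.976), *Prm2* (0.972) and *Atp8b3* (0.969), *Ldhc* to *Spata20* (0.972), *Prm1* (0.972) and *Atp8b3* (0.966), and *Gapdhs* to *Tnp2* (0.984), *Prm1* (0.984) and *Ubqlnl* (0.979). *Prm1* and *Prm2* encode protamines, and *Tnp2* a transition protein of spermatid chromatin. *Pdha2* was closest to *Gk2* (0.961), while *Cyct*, with few counts, was closest to *Zc3hav1l* (0.658), *Neurl4* (0.645) and *Nme7* (0.642). The points include the difference between segments and genotypes and share library depth, so the values are descriptions.

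The promoter windows of *Ldha* and *Ldhc*, neighbours on chromosome 7 that both fell in the ArKI caput, are shown with that of *Pgk2*. The 100 bases before a start site of *Ldha*, *Ldhc* and *Pgk2* are printed 5′ to 3′ on the gene's strand (RefSeq, GRCm38.p6), with matches in capitals. They are *Ldha* at chr7:46845704-46845803 (plus strand), *Ldhc* at chr7:46861163-46861262 (plus strand) and *Pgk2* at chr17:40208610-40208709 (minus strand).
Ldha: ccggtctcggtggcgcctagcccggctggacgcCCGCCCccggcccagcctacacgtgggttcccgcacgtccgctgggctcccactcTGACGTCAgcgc
Ldhc: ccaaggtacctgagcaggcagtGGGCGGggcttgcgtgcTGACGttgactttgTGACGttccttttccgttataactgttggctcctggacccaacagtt
Pgk2: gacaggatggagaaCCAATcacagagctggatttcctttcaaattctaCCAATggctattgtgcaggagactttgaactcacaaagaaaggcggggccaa
The capitals mark the cAMP response element TGACGTCA in *Ldha*, its 5-base core TGACG in *Ldhc*, the GC box GGGCGG, on either strand, in *Ldha* and *Ldhc*, and the CCAAT box in *Pgk2*. The TATA box letters TATAAA, also searched, are in none of the 3. Over 32851 windows of 300 bases, on both strands, 1.79% held TGACGTCA, 20.8% its core, 35.7% GGGCGG and 37.4% CCAAT and 13.6% TATAAA. Those windows are longer than the 100 bases printed. The 300-base window of *Cycs*, which did not pass in the caput, also held TGACGTCA, and that of another *Ldha* start site did not. The core lies within the full element, and these matches are descriptions of sequence.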

How the data were processed

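Total RNA of IS, caput and testis was sequenced as 50-base single-end reads. The authors deposited raw counts per RefSeq gene, made from uniquely mapped reads on mm10 with STAR and Subread 1.5.1. Replicates were not pooled. The labels name TruSeq RNA v2 and the methods a stranded TruSeq kit, and the strand setting of the counting is not given in the sources used here. Overlapping and antisense genes cannot be told apart if strand was ignored.

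Groups came from the sample labels. Counts were tested with edgeR 4.0.16 in R 4.3.3 (TMM scaling, filterByExpr with a minimum count of 10, robust quasi-likelihood test, Benjamini-Hochberg adjustment over all genes tested), with an FDR limit of 0.01 in the epididymis and for the WT tissue contrasts, 0.2 in the testis, and a 2-fold limit. The testis and epididymis tables were joined by gene for the tissue contrasts. Levels are CPM scaled by TMM over all 26 samples, and log values use a pseudocount of 0.5. Single values and ratios were tested with the exact permutation test, two-sided (SciPy 1.17.1). The statistics were tested on simulated data. Count intervals cover counting error at 95% confidence only, since reads carry no molecular identifiers.

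Exon lengths, positions and 50-base windows came from GENCODE M21 transcripts with a RefSeq match, and 141767 transcripts were searched for shared windows on both strands. The promoter windows came from RefSeq, from 250 bases before to 50 after the start. The members, the gene lists and the settings were chosen with earlier results of these data known. Genes were named by membership, by the lists and as the 3 closest in pattern. The labels do not tie sample numbers to mice, and the numbers were not used to pair samples: correlations of same-numbered deviations from group means over 2000 genes ran from -0.10 to 0.29 between IS and caput of one genotype, and from -0.52 to 0.66 between genotypes. Alternatives were RLE, upper quartile or no scaling factors, other filters, DESeq2 1.42.0, limma 3.58.1 (voom), a replicate block, other FDR limits and pseudocounts, and each sample left out. No protein sequences were used here. The gene altered in the knock-in line is not reported here.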

Additional observations from a re-analysis of the deposited data

Results flagged for a closer look

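Gaps of a single sample from its group were looked for in 42 gene and group combinations of 5 samples, with Dixon's ratio, which chance passes in about 1 in 20. *Pgk2* in WT caput replicate 3 stood apart (ratio 0.761, 13.2 CPM against 7.34 to 8.75 CPM), in the WT caput sample with the highest sperm marker sum (380.1 CPM). *Pdha1* in WT IS replicate 4 was at 218 CPM against 206 to 209 CPM in the others (ratio 0.740). The others rest on few counts: *Ldhc* in ArKI IS replicate 5 (ratio 1, 8 counts against none), *Pdha2* in ArKI caput replicate 5 (ratio 1, 1 count against none) and *Cyct* in ArKI caput replicate 1 (ratio 0.827, 0.458 CPM against at most 0.0793 CPM).

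The effect of the ArKI allele differed between caput and IS for *Ldha* (interaction -0.57, log2 caput difference minus IS difference) and *Ldhb* (-0.82), by edgeR's interaction test. Both were higher in the ArKI IS, and *Ldha* was lower in the ArKI caput.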

How the results depend on the processing

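The caput falls of *Pgk2*, *Ldhc*, *Gapdhs* and *Ldha*, the IS rises of *Ldha* and *Ldhb* and the interaction of both kept their direction and call in every alternative that kept the gene (*Pgk2* -2.42 to -1.97, *Ldhc* -3.61 to -3.03, *Gapdhs* -3.78 to -3.06). Depth limits *Pdha2* and *Cyct* in the epididymis, and shared sequence limits *Pgk1* and *Gapdh*.

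With no filter beyond 1 count, genes past both limits and lower were 270 in IS, 605 in caput and 20 in testis. With at least 10 counts in every sample, which removes genes absent from one group, 229 genes were higher in IS, 185 higher and 126 lower in caput, 72 higher and 3 lower in testis, 3362 higher in testis than IS, 3302 higher in testis than caput, and 859 higher and 737 lower in caput than IS. Under that filter 1 member was lower in caput, and members higher were 2 for testis over IS, 1 for testis over caput and 2 for caput over IS. At FDR 0.05 the testis gave 7 genes lower and 1 member higher, and the interaction 1057 and 1113 genes.

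Other scaling moved the median of all genes by -0.48 to 0.11 between testis and IS and by -0.50 to 0.12 between testis and caput, and *Ldhb* between testis and IS turned to -0.12 (library size) and -0.20 (upper quartile). *Gapdhs* in testis was -0.00071 with RLE factors and with DESeq2. With library size alone *Pdha2* over *Pdha1* in IS passed (-0.30, exact permutation p = 0.0159). With pseudocount 2, *Pgk2* over *Pgk1* in testis was 0.031, and *Cyct* over *Cycs* -0.20 in IS and 0.017 in testis.

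Sample numbers were shared, but nothing shows that they pair the samples. A replicate block changed no call of a member in the fits and turned the interaction of *Gapdh* to 0.015. As paired exact sign-flip tests, where 5 pairs cannot go under p = 0.0625, the ratios could not pass: *Pgk2*/*Pgk1* -1.49 in IS and -1.85 in caput, *Ldhc*/*Ldha* -2.29 and -2.44, *Ldhc*/*Ldhb* -2.53 and -2.41, *Gapdhs*/*Gapdh* -1.97 and -3.07, *Ldhb*/*Ldha* 0.24 in IS and *Pdha2*/*Pdha1* -0.72 in caput.

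Leaving out 1 sample at a time gave these ranges where a call or sign changed. In caput, *Gapdh* ran from -0.22 to 0.014. In testis, genes lower were 11 to 23, members higher 1 to 2, *Pgk1* -0.021 to 0.72, *Ldha* -0.014 to 0.027, *Gapdhs* -0.057 to 0.050, *Cycs* -0.13 to 0.32 and *Cyct* -0.057 to 0.098. In the interaction, *Pgk1* ran from -0.24 to 0.0081, *Gapdhs* from -0.32 to 0.65, *Cycs* from -0.17 to 0.040 and *Gapdh* from -0.19 to 0.11. The ratio ranges were -0.33 to 0.17 for *Pgk2*/*Pgk1* in testis, 0.20 to 0.31 and -0.089 to 0.075 for *Ldhb*/*Ldha* in IS and caput, -0.32 to -0.16 for *Pdha2*/*Pdha1* in IS, and -0.19 to 0.18, -1.05 to -0.64 and -0.28 to 0.16 for *Cyct*/*Cycs* in IS, caput and testis. The causes were not tested.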

Other observations

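Somatic genes outside the members also responded differently in caput and IS by the interaction test: *Pfkl*, a phosphofructokinase, with -0.33, *Aldoa*, the muscle-type aldolase, with -0.36, *Pfkp*, another phosphofructokinase, with 0.58, and *Ldhd*, which acts on D-lactate, with 0.44 on the log2 scale, each past FDR 0.01. They are 3 of 13 glycolysis genes tested and 1 of 6 for lactate and pyruvate handling, against 0 of 11 genes of the pyruvate dehydrogenase complex, 0 of 18 partners of cytochrome c and 8.18% of all genes.

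Within the caput alone, over 10 samples, the closest genes by Pearson's r of log2(CPM + 0.5) were *Dbil5* (0.997) for *Pgk2*, *Slc29a1* (0.994) for *Ldhc* and *Ubqlnl* (0.993) for *Gapdhs*. *Pdha2* and *Cyct*, with few counts, were closest to *Timp3* (0.974) and *Fam126b* (0.875). These values hold the difference between genotypes, and they are given as descriptions.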
